A study of Mus musculus with 7 samples.

Results

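Fibroblast growth factor (Fgf) signalling was read in the posterior second heart field (pSHF) of mouse embryos through 5 ligand genes, *Fgf3*, *Fgf8*, *Fgf9*, *Fgf10* and *Fgf15*, and 5 response genes, *Spry1*, *Spry2*, *Etv4*, *Etv5* and *Dusp6*. The members were taken by name, as all array probes that carry one of these 10 gene symbols, which gave 13 of the 41174 probes and 10 of the 21475 gene names on the array. Tissue was microdissected at embryonic day 9.5 from embryos of crosses between *Shh* +/- mice on a mixed background, given in the labels as C56B/6 and CD-1 mixed. The dissection kept the attached foregut and was described as leaving out the neural tube, the heart and dorsal lateral plate mesenchyme. Tissues of several embryos were pooled by genotype before RNA extraction, which gave 4 pools of *Shh* -/- embryos (*Shh* mutant) and 3 pools of *Shh* +/+ embryos (wild type). The mutants lack functional Shh in every tissue from conception, so that changes in the pSHF can follow from its loss anywhere in the embryo.

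Most Fgf ligands are secreted proteins that bind tyrosine kinase receptors and activate the Ras and MAP kinase cascade inside the receiving cell. The signal raises transcription of Ets family factors such as Etv4 and Etv5, and of feedback inhibitors such as the Sprouty proteins and the phosphatase Dusp6, so the transcript levels of these genes are used as a read-out of Fgf activity. In the embryo, Fgf8 from pharyngeal epithelia and mesoderm and Fgf10 from second heart field mesoderm are known for their part in the growth of the heart tube and the pharyngeal region. The question put to the data was whether the response genes moved with *Fgf8* when *Shh* was lost.

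Each probe is a single strand of 60 bases. The stretches below are the first 30 bases of 6 of the probes, as the array files give them, in lower case since no base is singled out. *Fgf8* and *Etv5* are shown because each is read by a pair of probes at different places that gave different readings, *Fgf10* because it lay apart between genotypes, and *Fgf15* because its signal was near background.
Fgf8 probe: ggcacagcaaaggggaggggctggggagct
Fgf8 second probe: cagtcctcacctaattttacacagcatgtg
Fgf10 probe: acagcaaatagtgcagacgttggattctta
Fgf15 probe: cccttttccacttataaatgtcagatggaa
Etv5 probe: tgttcttggctgttcctaaagcttgccctt
Etv5 second probe: atgtactacacacatgtcatatagtacata
The positions below are those of the array annotation in mouse build mm9. The *Fgf8* probe lies at chr19:45811364-45811423 on the minus strand and the second at chr19:45816101-45816160. The *Fgf10* probe lies at chr13:119580365-119580424 and the *Fgf15* probe at chr7:152086371-152086430, both on the plus strand. The *Etv5* probes lie at chr16:22383406-22383465 and chr16:22382377-22382436 on the minus strand. Of the other probes tested, that of *Fgf9* lies at chr14:58728424-58728483, that of *Spry1* at chr3:37543194-37543253 and that of *Dusp6* at chr10:98729985-98730044, all on the plus strand. That of *Spry2* lies at chr14:106291385-106291444 and that of *Etv4* at chr11:101631443-101631502, both on the minus strand. The exon or other gene part that holds each probe was not analysed here.

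Each pool was read on 1 single-colour array. The values are normalized log2 signals, so that a difference of 1 is a doubling of signal, and changes are given as mutant minus wild type. Mutant values are listed for pools 1, 2, 3 and 4 in turn, and wild-type values for pools 1, 3 and 4. Levels of different probes are not comparable. Between 59.9% and 70.6% of probes on an array were well above background, and no spot was saturated. Pools of the same number lay on the same slide, with the mutant array always in the first position, so that array position and genotype cannot be told apart. The slide of mutant pool 2 held no wild-type array, and the label of that pool notes a possible leak. *Shh* itself was at 9.67, 9.39, 9.22 and 9.32 in the mutants and at 10.72, 10.74 and 9.98 in the wild type, with no overlap. For *Shh* the difference was −1.08 (standard error 0.20, limma's adjusted p = 0.0650). *Hhip*, a Hedgehog target that encodes a ligand-binding inhibitor, fell by 2.82 (limma's adjusted p = 0.00124), and *Gli1*, another target, was at −1.02 (limma's adjusted p = 0.0665). For *Ptch1*, the Hedgehog receptor and a target gene, 1 probe was at −1.17 (limma's adjusted p = 0.139) and the other at −1.19 (limma's adjusted p = 0.757).

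Among the ligands, *Fgf8* had the lower signal in the mutants and *Fgf10* the higher signal, while *Fgf9* overlapped between genotypes and *Fgf15* and *Fgf3* were at or near background. No member passed the test across all probes: 0 of the 8 member genes tested had an adjusted p under 0.05 (limma with Benjamini-Hochberg adjustment). By the same rule, 123 of 23117 probes were called, or 0.532%, with 67 lower and 56 higher in the mutants. That count fell to 11 with the slide as a replicate block and lay between 12 and 139 with 1 array left out, and the member count was 0 in each of these. Mutant pool 2, whose slide held no wild-type array, carries no weight in the genotype difference of the block fit. At an unadjusted p under 0.05, 2 of the 8 genes stood out, *Fgf8* and *Fgf10*, against 7.95% of all probes tested. The median change of the 8 genes was −0.07, against 0.02 over all probes tested.

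*Fgf8* encodes a secreted ligand of pharyngeal epithelia and mesoderm. The normalized log2 signal of *Fgf8* was at 7.36, 6.59, 7.94 and 7.11 in the mutants and at 9.14, 9.19 and 8.23 in the wild type. No mutant value reached the lowest wild-type value, a pattern shown by 3.59% of probes. The nearest values were those of mutant pool 3 and wild-type pool 4. The means were 7.25 ± 0.56 (SD, n = 4) in the mutants and 8.85 ± 0.54 (SD, n = 3) in the wild type. The change was −1.61 (standard error 0.33, 95% interval −2.36 to −0.85), which put the mutant signal at 32.9% of that of the wild type, and it was not past the threshold (limma's adjusted p = 0.0888). In such bulk samples fewer cells of a type and less RNA per cell cannot be told apart. Mutant minus wild-type differences on slides 1, 3 and 4 were −1.79, −1.25 and −1.12, all in the same direction. With an interquartile range filter before adjustment, with the SAM statistic or with array weights, *Fgf8* passed the threshold, with adjusted p = 0.0261, 0.0386 (a false discovery rate over all regroupings of the arrays) and 0.0206. These settings also called a larger share of all probes. Without mutant pool 2, whose array may have leaked, the change was −1.39 (limma's adjusted p = 0.156).

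The second *Fgf8* probe, whose sequence is given above, was well above background in 0 of 4 mutant and 2 of 3 wild-type pools, and was not tested. Its normalized log2 signals were 3.45, 3.36, 3.95 and 3.72 in the mutants and 4.35, 4.49 and 4.18 in the wild type. The mutant pools again lay below the wild-type pools without overlap. No fold is given for it, since the fold came to under 1 once the mutant pools were raised to the lowest signal well above background.

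**Figure D1:**
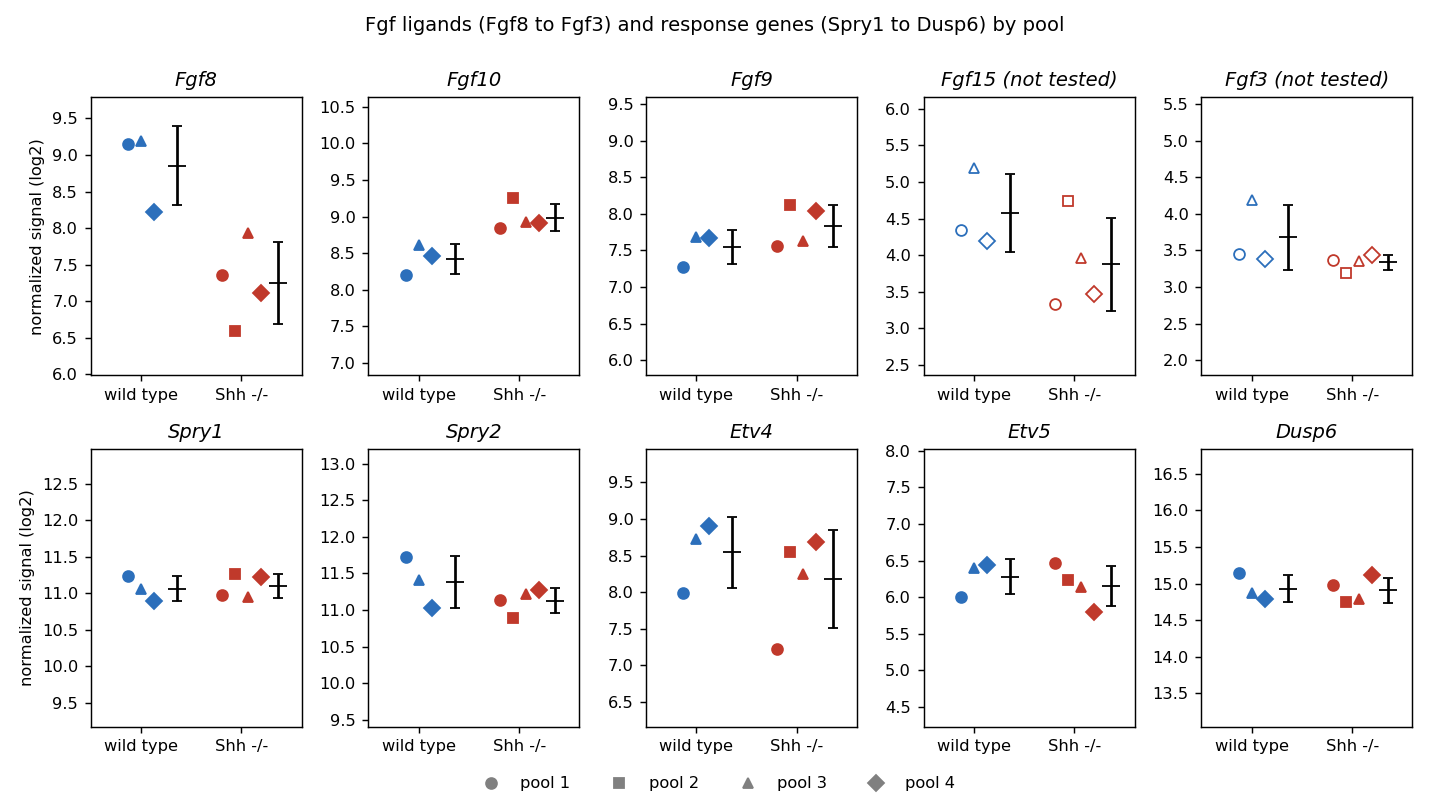
Normalized log2 signal of the 10 genes, each by its brightest probe, in 3 wild-type pools (blue) and 4 Shh -/- pools (red). Marker shapes give the pool number, black bars the mean ± SD, open markers probes not tested for low signal, and each panel spans the same number of log2 units around its own centre. *Fgf8* lies lower and *Fgf10* higher in the mutants without overlap, while the 5 response genes in the lower row overlap.

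*Fgf10* encodes a ligand made by mesenchyme that signals mainly to neighbouring epithelium, and in the second heart field it marks progenitors. Its normalized log2 signal was at 8.84, 9.26, 8.93 and 8.91 in the mutants and at 8.21, 8.61 and 8.46 in the wild type. Every mutant pool lay above every wild-type pool, as for 4.69% of probes. The change was 0.56 (standard error 0.15, 95% interval 0.23 to 0.89), or 1.47-fold, and was not past the threshold (limma's adjusted p = 0.190). On slides 1, 3 and 4 the mutant array exceeded the wild-type array by 0.63, 0.32 and 0.45. In the authors' own values the difference was −0.09 (limma's adjusted p = 0.972), and it was 0.52 once each array of those values was set to 1 median.

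*Fgf9*, which encodes a ligand of epithelia and mesothelium, was at 7.56, 8.12, 7.62 and 8.03 in the mutants and at 7.27, 7.68 and 7.67 in the wild type. The pools overlapped and the change was 0.29 (95% interval −0.11 to 0.70, limma's adjusted p = 0.90), or 0.16 without wild-type pool 1. *Fgf15*, which encodes an Fgf of the endocrine subfamily that is also made in the neural tube and pharynx, was at 3.33, 4.74, 3.96 and 3.47 in the mutants. In the wild type it was at 4.34, 5.19 and 4.19. It was well above background in 0 of 4 mutant and 2 of 3 wild-type pools, and the signal was at least 1.09-fold higher in the wild type when the dim pools were raised to the lowest signal well above background. The bound allows for background and not for the spread between pools, which overlapped, and no test was made. *Fgf3*, a ligand of pharyngeal and otic tissue, was not well above background on any array, with signals from 3.20 to 4.20. Its probe spans 1860 bases of the genome, from 152026667 to 152028526 on chromosome 7, so that its 60 bases are not contiguous there.

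None of the response genes was called. The changes of the 5 genes, each by its brightest probe, ran from −0.37 for *Etv4* to 0.04 for *Spry1*, with 4 of 5 below 0 and a median of −0.12. By these probes the pools of the 2 genotypes overlapped in every case, and none had an unadjusted p under 0.05. The dimmer second *Etv5* probe had an unadjusted p of 0.00905 (limma). With the slide as a replicate block, limma's unadjusted p was 0.01455 for *Etv4* and 0.0113 for that second probe. In that fit 2098 of 23117 probes had an unadjusted p under 0.05.

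*Spry1* and *Spry2* encode Sprouty proteins, which damp signalling between the receptor and MAP kinase. *Spry1* was at 10.98, 11.26, 10.94 and 11.22 in the mutants and at 11.23, 11.06 and 10.89 in the wild type. Its change was 0.04 (standard error 0.13, 95% interval −0.27 to 0.35), and a fall as large as the estimate for *Fgf8* lies outside that interval. *Spry2* was at 11.14, 10.89, 11.21 and 11.27 in the mutants and at 11.72, 11.41 and 11.02 in the wild type. Its change was −0.25 (standard error 0.17, 95% interval −0.65 to 0.14, limma's adjusted p = 0.974), and it was −0.08 without wild-type pool 1 and −0.44 without wild-type pool 4. The lowest *Spry2* value was that of mutant pool 2, which also had the lowest *Fgf8* value and the highest *Spry1* value. A second, dimmer *Spry2* probe was well above background in 3 of 4 mutant and 2 of 3 wild-type pools and was not tested. Its means were 4.85 ± 0.30 (SD, n = 4) and 4.86 ± 0.32 (SD, n = 3).

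*Etv4* encodes an Ets factor that carries Fgf signals to target genes. It was at 7.22, 8.55, 8.25 and 8.69 in the mutants and at 7.99, 8.73 and 8.91 in the wild type. Mutant pool 1 was the lowest of the mutants and wild-type pool 1, on the same slide, the lowest of the wild type. The change was −0.37 with the widest interval of the response genes (standard error 0.36, 95% interval −1.18 to 0.44). Without mutant pool 1 it was −0.05, without wild-type pool 4 −0.19 and without wild-type pool 1 −0.64. Within slides 1, 3 and 4 the differences were −0.78, −0.48 and −0.21. With the slide as a replicate block the difference was −0.49 (standard error 0.15, limma's adjusted p = 0.330).

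*Etv5* encodes another Ets factor of the same group, and its pair of probes gave different values. The brighter probe was at 6.46, 6.23, 6.14 and 5.80 in the mutants and at 6.00, 6.40 and 6.44 in the wild type. Its change was −0.12 (standard error 0.18, 95% interval −0.53 to 0.28), and the slides gave both signs, with 0.46, −0.26 and −0.64. Without mutant pool 4 the change of this probe was −0.0058 and without wild-type pool 1 −0.26. The second probe was at 5.34, 5.24, 5.60 and 5.36 in the mutants and at 5.60, 6.15 and 5.96 in the wild type. It overlapped in 1 place, between mutant pool 3 and wild-type pool 1. Its change was −0.51 (standard error 0.15, 95% interval −0.86 to −0.16) and was not past the threshold (limma's adjusted p = 0.290). With array weights this probe was at −0.66 and past it (limma's adjusted p = 0.0494). With quantile normalization the change was −0.25, and −0.21 in the authors' values after each array was brought to 1 median. Both probes were dim, with spot intensities from 74.3 to 127.9 for the brighter and from 58.8 to 101.7 for the second.

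*Dusp6* encodes a phosphatase that inactivates MAP kinase, and its transcript is a common marker of that cascade. Its spots read 27150 to 42250 intensity units. The normalized signal was at 14.97, 14.75, 14.79 and 15.12 in the mutants and at 15.14, 14.87 and 14.78 in the wild type. The change was −0.02 (standard error 0.14, 95% interval −0.34 to 0.29, limma's adjusted p = 1.00). The sign of this change, like that of *Spry1*, differed between processing alternatives, and no call followed in any of them.

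**Figure D2:**
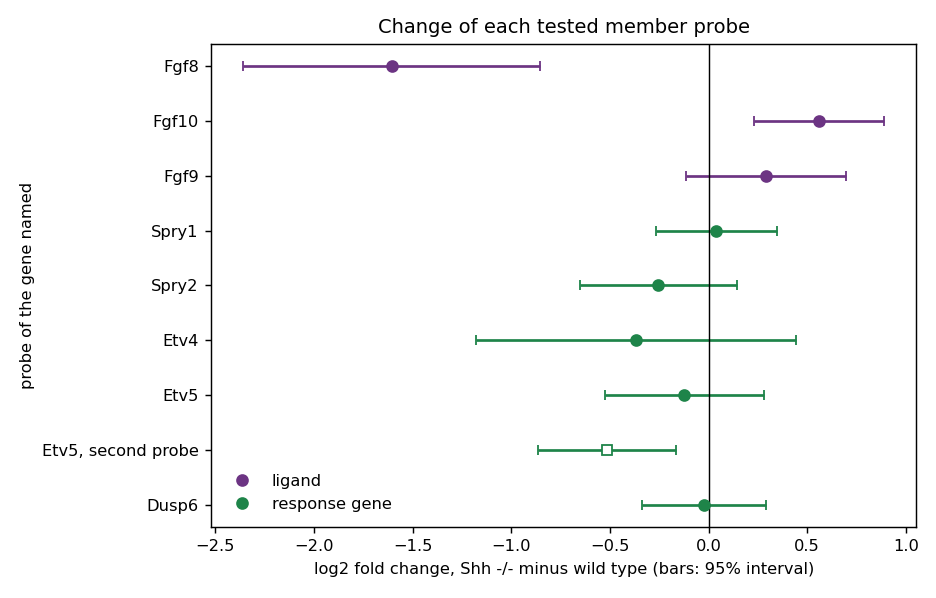
Change of each of the 9 member probes tested (x axis, log2 fold change, mutant minus wild type, with 95% interval from limma), ligands in purple and response genes in green, and the second *Etv5* probe as an open square. The intervals of *Fgf8*, *Fgf10* and the second *Etv5* probe do not include 0, and that of *Fgf8* (−2.36 to −0.85) lies below those of *Spry1*, *Spry2*, the brighter *Etv5* probe and *Dusp6*.

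Whether the response genes fell as far as *Fgf8* was asked on each array, by subtracting the log2 signal of *Fgf8* from that of each response gene. The mean of this difference was higher in the mutants for all 5 genes. It was higher by 1.65 for *Spry1* and by 1.58 for *Dusp6*, both with p = 0.0571 (exact permutation test, two-sided, over the 35 assignments of 4 and 3 arrays). For *Etv5* it was 1.48 (exact p = 0.0857), for *Spry2* 1.35 (exact p = 0.0571) and for *Etv4* 1.24 (exact p = 0.2). None of the 5 passed 0.05, the smallest p this test can give is 0.0286, and the p-values were not adjusted for 5 ratios. The 5 ratios share the *Fgf8* values and are not independent of each other. *Fgf8* alone gave p = 0.0571 in the same exact test, without overlap between genotypes. A gene that did not change would give a ratio near the *Fgf8* difference, so the ratios largely restate that difference.

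Relative to the wild-type mean, the *Spry1* to *Fgf8* ratio stood at 1.41, 2.47, 0.80 and 1.91 in the mutants and at −0.12, −0.33 and 0.45 in the wild type. The ratios of *Spry1*, *Spry2* and *Dusp6* did not overlap between genotypes, as *Fgf8* itself did not. For these ratios and that of *Etv5*, the smallest mutant value was that of pool 3, which held the most *Fgf8* signal among the mutants. For *Etv4* the smallest was that of mutant pool 1, at 0.17, with pool 3 at 0.62. The *Etv4* and *Etv5* ratios overlapped, with wild-type pool 4 above at least 1 mutant pool in both. On every shared slide the mutant ratio exceeded the wild-type ratio for all 5 genes, from 0.47 for *Etv5* on slide 4 to 2.24 for *Etv5* on slide 1. With quantile normalization the exact p was 0.0286 for *Dusp6*, *Spry2* and *Etv5*, and for *Spry2* it was also 0.0286 under 4 other alternatives. The point estimate of the *Fgf8* change, −1.61, lies outside the 95% interval of all 5 response genes, of which the lowest bound was −1.18, for *Etv4*. That comparison leaves out the error of the *Fgf8* estimate, whose own 95% interval was −2.36 to −0.85. It overlaps the interval of *Etv4* (−1.18 to 0.44) and just meets that of the second *Etv5* probe (−0.86 to −0.16).

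**Figure D3:**
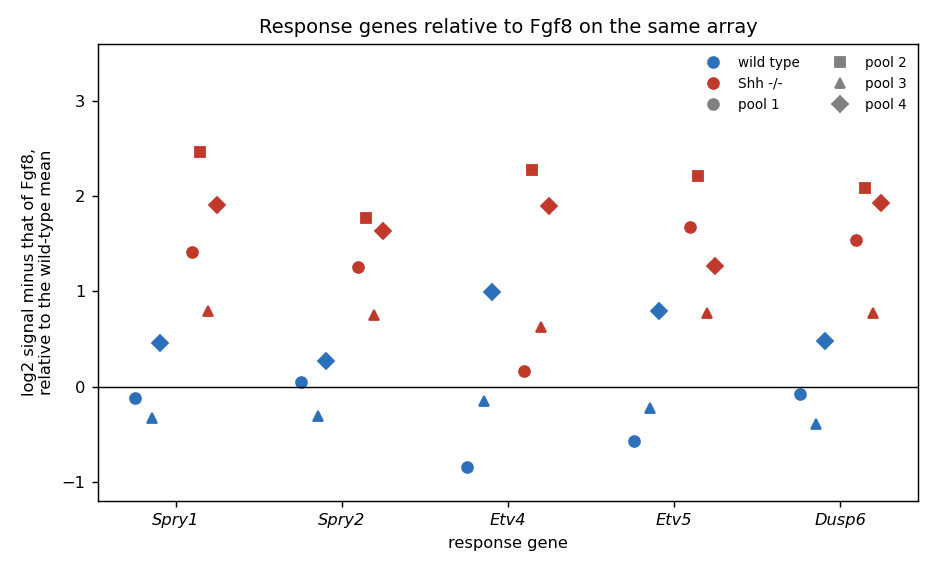
Log2 signal of each response gene minus that of *Fgf8* on the same array (y axis, log2 units, set to 0 at the wild-type mean) in wild-type (blue) and Shh -/- pools (red), with marker shapes for pools. The mutant pools lie above the wild-type pools for *Spry1*, *Spry2* and *Dusp6* and overlap them for *Etv4* and *Etv5*; exact p-values run from 0.0571 to 0.2.

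**Figure D4:**
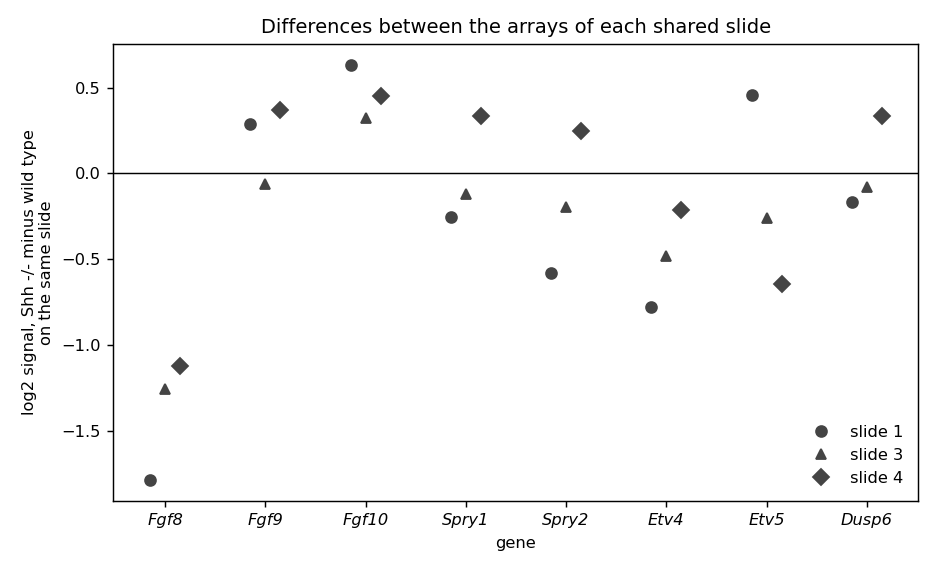
Mutant minus wild-type difference in normalized log2 signal on slides 1, 3 and 4 (y axis) for the 8 member genes tested, each by its brightest probe. *Fgf8* lies between −1.79 and −1.12 and *Fgf10* between 0.32 and 0.63, *Etv4* is below 0 on all 3 slides, and the remaining response genes lie on both sides of 0.

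The rest of the pathway, from a list of 56 further genes of which 54 had a probe by name, gave 0 calls among the 40 genes tested, each by its brightest probe, against 0.532% of all probes tested. At an unadjusted p under 0.05, 2 were lower and 3 higher, beside 7.95% of all probes in either direction, and the median change of the 40 genes was 0.03 against 0.02 over all probes tested. By role, 6 of 16 other ligands on the array were tested, and for 8 the brightest probe was not well above background on any array, among them *Fgf17*, whose product is close to Fgf8 in sequence. Of these 8, *Fgf14* had a dimmer probe that was above background in 1 wild-type pool. Of the receptors and binding partners 8 of 9 were tested, of the other feedback and response genes 10 of 13, and of the signal transduction genes 16 of 16. The 16 transduction genes, which carry the signal from receptor to MAP kinase, ran from −0.21 to 0.29. *Spry4*, a further Sprouty gene, was well above background in 0 of 4 mutant and 1 of 3 wild-type pools and was not tested.

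Among the feedback genes, *Dusp9*, which encodes another MAP kinase phosphatase, had a pair of probes that gave different values. The brighter was at 0.22 (standard error 0.12, limma's adjusted p = 0.828). The second was at 6.80, 7.33, 7.45 and 6.96 in the mutants and at 7.54, 8.06 and 9.70 in the wild type. It did not overlap between genotypes, with wild-type pool 4 far above the other wild-type pools. The change of the second probe was −1.30 (standard error 0.44, 95% interval −2.30 to −0.30, limma's adjusted p = 0.380). *Dusp9* is described after its values were seen.

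Among the receptors, *Fgfr1* was at −0.18 (95% interval −0.66 to 0.31) and *Fgfr2* at −0.04 (95% interval −0.27 to 0.19). These encode the main receptors of mesenchyme and epithelium, respectively. *Fgfr3* was at 0.18 (95% interval −0.19 to 0.55). The dimmer probes tested ran from −0.37 to −0.05 for *Fgfr1* and from −0.20 to −0.15 for *Fgfr2*, and that of *Fgfr3* was at 0.26. *Fgfr4*, a receptor of endoderm and liver, was at 9.94, 10.38, 10.35 and 10.20 in the mutants and at 9.82, 9.73 and 9.94 in the wild type. Mutant pool 1 and wild-type pool 4 nearly met, and the difference was 0.39 (standard error 0.14, limma's adjusted p = 0.392). The dimmer *Fgfr4* probes were at 0.02 and 0.11, both with overlap. *Klb* encodes the co-receptor through which endocrine Fgfs act in liver, and its change was the greatest in size among the brightest probes of the 40 genes. It was at 8.98, 9.40, 9.31 and 8.56 in the mutants and at 8.0, 8.06 and 8.10 in the wild type, with no overlap. The change was 1.01 (standard error 0.19, 95% interval 0.57 to 1.45, limma's adjusted p = 0.0726). It was past the threshold without mutant pool 4, at 1.18 (limma's adjusted p = 0.0231), with the interquartile range filter, with SAM and with array weights. The filter, SAM and array weights also called a larger share of all probes. A dimmer *Klb* probe was well above background in 1 of 4 mutant and 0 of 3 wild-type pools and was not tested. Its means differed by 0.24, with overlap.

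A list of 6 liver bud genes was also higher in the mutants. Its mean level was 11.57 to 11.94 in the mutant pools and 10.79 to 11.13 in the wild-type pools, 6 of 6 genes were above 0 and 2 were called, *Fgb* at 0.82 and *Ttr* at 0.91. The part of liver bud tissue in the *Klb* and *Fgfr4* values was not tested.

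The other pathway genes at an unadjusted p under 0.05 were *Etv1*, *Fgfbp3* and *Fgf11*. *Etv1*, which encodes the third Ets factor of the Etv4 group, was at −0.27 (standard error 0.10, limma's adjusted p = 0.496). It was at 10.40, 10.52, 10.32 and 10.43 in the mutants and at 10.75, 10.68 and 10.63 in the wild type, without overlap. *Fgfbp3*, which encodes a secreted Fgf-binding protein, was at −0.37 with overlap (limma's adjusted p = 0.556). *Fgf11*, whose product stays inside the cell, was at 0.43 without overlap (limma's adjusted p = 0.346), while its dimmer probe was at −0.09 with overlap. Without overlap between genotypes were 2 genes lower in the mutants and 6 higher, of 40, each by its brightest probe, beside 3.59% of all probes lower and 4.69% higher. The first 2 were *Etv1* and *Frs2* (−0.21), the adaptor of Fgf receptors. The 6 were *Klb*, *Fgf11*, *Fgfr4*, *Sos1* (0.29), *Flrt3* (0.28) and *Spred2* (0.19), and *Frs2*, *Sos1*, *Flrt3* and *Spred2* are named only to complete these counts, after their values were seen.

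**Figure D5:**
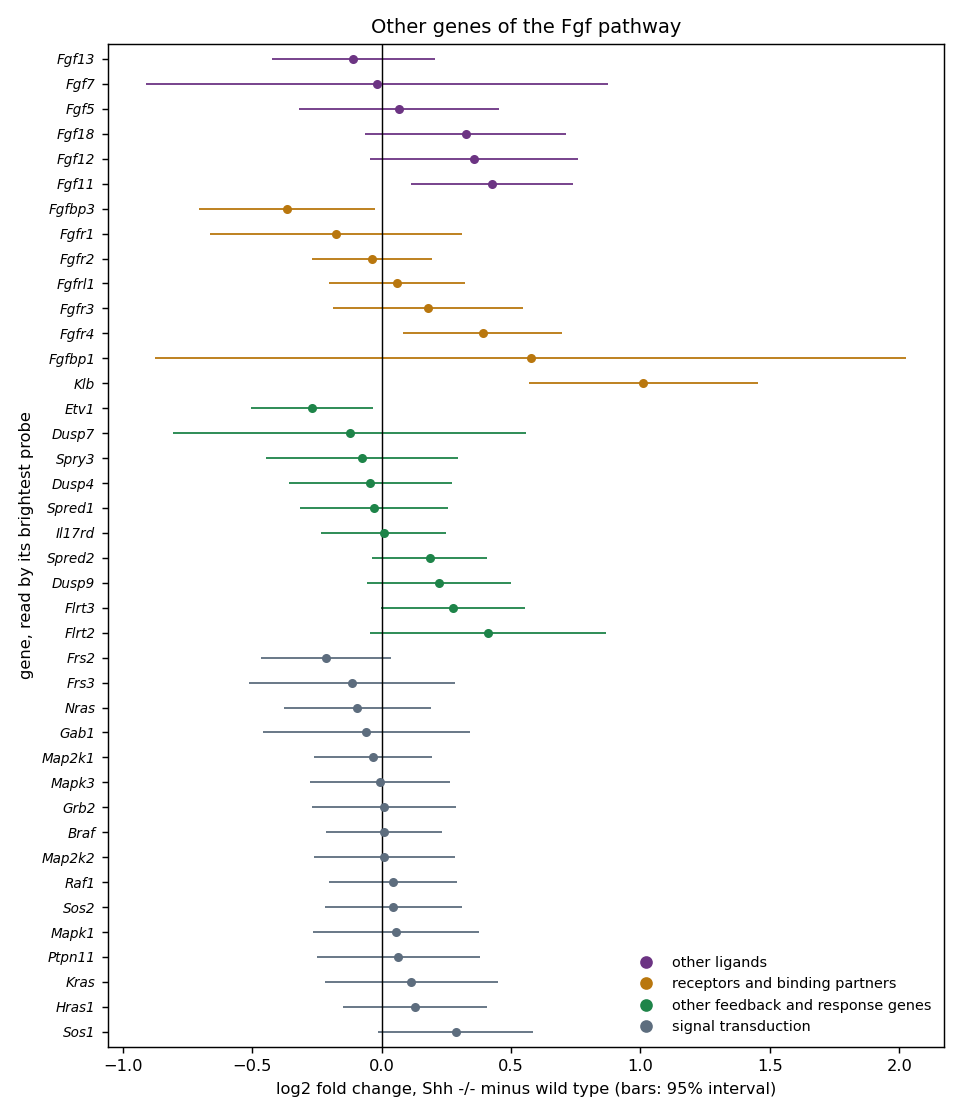
Change of the 40 other Fgf pathway genes tested (x axis, log2 fold change, mutant minus wild type, with 95% interval), each by its brightest probe and coloured by role. None was called; *Klb*, at 1.01, lies farthest from 0, and the 16 signal transduction genes lie between −0.21 and 0.29.

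Several sources of *Fgf8* in the embryo were also read through marker lists, since the dissected tissue holds more than mesoderm. All 12 posterior heart field markers passed the filter on low signal, with mean levels of 10.95 to 11.20 in the mutants and 11.46 to 11.49 in the wild type. Of these 9 were below 0 and 3 above, with a median change of −0.26, and *Foxf2* was called lower, at −2.43. The mean level of 12 pharyngeal and foregut endoderm markers was 10.07 to 10.23 in the mutants and 10.65 to 10.74 in the wild type, with 9 of 12 genes below 0 and a median change of −0.18. The 2 called lower, *Pax1* at −3.01 and *Pax9* at −2.54, weigh heavily on that mean. *Pax9* was well above background in 1 of 4 mutant and 3 of 3 wild-type pools. It thus passed the filter through the wild type, and the size of its change is uncertain. The others were *Nkx2-1* (−0.88), *Sox2* (−0.41), *Foxa2* (−0.25), *Cdh1* (−0.20), *Cldn6* (−0.16), *Epcam* (−0.13), *Foxa1* (−0.06), *Krt18* (0.12), *Krt8* (0.39) and *Nkx2-3* (0.74). The mean of 8 anterior heart field and pharyngeal mesoderm markers was 10.31 to 10.61 against 10.78 to 10.97, with 5 below 0 and 3 above, a median change of −0.56 and *Six2* called lower, at −1.44. For 7 ectoderm markers it was 8.61 to 9.09 against 8.85 to 9.22, which overlapped. Of these, 4 were below 0 and 3 above with a median of −0.28, *Tcfap2c* was called lower, at −1.18, and *Krt14*, at 0.39, was the highest. The neural tube list was at 5.88 to 6.28 against 6.73 to 6.89, with 7 of 7 genes tested below 0 and a median of −0.85. *Zic1* was called lower, at −1.92. The others tested were *Hes5* (−2.66), *Neurog2* (−1.41), *Nkx6-1* (−0.85), *Pax3* (−0.57), *Olig2* (−0.13) and *Pax6* (−0.03). Of 11 genes on the array 4 were not tested for low signal, *Nkx2-2*, *Sox1*, *Pax7* and *Irx3*. *Irx3* was not well above background on any array. Neural crest and branchial arch markers were at 8.52 to 8.94 against 9.15 to 9.29, with 6 of 8 below 0, a median of −0.47 and 2 called lower, *Dlx1* at −1.54 and *Dlx2* at −1.27. The tail bud, another site of *Fgf8*, was at 5.17 to 5.75 against 5.32 to 5.57, with *Hes7*, *Wnt3a* and *Cdx4* not well above background on any array. Heart muscle markers were at 14.12 to 15.20 against 14.13 to 14.85 and erythroid markers at 12.89 to 13.33 against 13.25 to 14.08, and both overlapped. Of the heart muscle genes 8 of 8 were above 0 (median 0.25), and 6 of 6 erythroid genes were below 0 (median −0.39), with none called. The part of these tissues in the *Fgf8* values was not tested.

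RefSeq upstream windows (GRCm38.p6, 250 bases before the start) were held for 7 of the 10 members, with 8 windows in all, and not for *Fgf8*, *Fgf15* and *Etv4*. The letters GACCACCCA, the core bound by Gli factors, were in 0 of the 8 windows on either strand, against 0.225% of 32851 windows of that length. The letters CCGGAAGT, an Ets core, were in 0 of 8 windows, against 2.88%. With shares this low, 0 matches in 8 windows cannot tell the members from other genes, and no conclusion is drawn.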

How the data were processed

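RNA from 4 *Shh* mutant and 3 wild-type pools of E9.5 pSHF tissue was read on 7 single-colour Agilent arrays, grouped as the labels state. In the labels, strain stands under genotype and genotype under strain, and both were read by content. The authors' deposited scan files give each spot's mean signal, local background and processed signal as intensity from Feature Extraction 10.5.1.1 per the submitters' notes. A second deposited table gives the authors' normalized values on the log2 scale after background correction and variance stabilizing normalization (VSN). Its column medians run from 5.50 to 9.93, its centring is unknown, and it served only as an alternative (correlation with the values used here 0.982 to 0.999).

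Mean signals were corrected by normexp with 153 negative control spots per array (offset 50), normalized by VSN (own implementation, share kept 0.9, 7 cycles, 5 slices) and expressed as log2. Flagged outlier spots (155 to 206 per array) were left out and spots of a probe averaged. Probes with a gene name, at least 2 values per genotype and, in 1 genotype or both, signal well above background on all arrays were tested with limma 3.58.1 in R 4.3.3 (with data.table, version 1.17.8), with Benjamini-Hochberg adjustment over all 23117. A gene was read by its brightest tested probe. Replicates are pools of embryos, and p-values measure the spread between pools. The number of arrays limits the precision. The scripts were tested on simulated data.

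The members, gene lists and tests were chosen with earlier results of these data known. All members are named; other pathway genes are named at an unadjusted p under 0.05 or, without overlap between genotypes, at an absolute change over 0.5, with *Fgfr1* to *Fgfr4* in any case. The replicate number in the labels marks a shared slide. Deviations from the genotype means correlated at 0.0328 to 0.239 within the 3 shared slides, against −0.22 to 0.187 over 9 pairs across slides. Alternatives were 75th percentile scaling of processed signals, quantile normalization, other background corrections, the authors' values, other filters, outlier spots kept, SAM, array weights, the slide as a fixed or random block, and each array left out. The authors' values with each array set to 1 median were added after seeing the data. The figures were made in matplotlib 3.10.9 under Python 3.11.15.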

Additional observations from a re-analysis of the deposited data

How the results depend on the processing

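*Fgf8* stayed below 0 in all 20 alternatives, from −2.18 in the authors' values to −1.37 with quantile normalization, and passed the threshold in 3 of them: −1.61 with the interquartile range filter and with SAM, and −1.71 with array weights. Those 3 gave 1 member gene called in place of 0, and each also called a larger share of all probes. The counts were 176 of 11559 probes with the interquartile range filter, 261 of 23026 with SAM and 444 of 23117 with array weights. Without these changes it was 123 of 23117. The second *Etv5* probe passed with array weights alone (−0.66). Among the other pathway genes 1 was called, *Klb*, with the interquartile range filter, SAM, array weights and without mutant pool 4, and 0 otherwise, so with 1 array left out that count ran from 0 to 1. Over all probes, 123 calls became 57 with 75th percentile scaling (66.7% lower in the mutants, against 54.5%), 21 with normexp on the local background (90.5% lower), 33 with no filter on dim probes (69.7% lower), 261 with SAM, 444 with array weights (44.4% lower) and 0 in the authors' values, as deposited (28 at an unadjusted p under 0.05 by limma) or set to 1 median (1040). With 1 array left out there were 12, without mutant pool 3, to 139, without mutant pool 1. With the slide as a fixed replicate block there were 11 calls (90.9% lower), *Fgf8* was at −1.39 (limma's adjusted p = 0.0538), and no call of a member or pathway gene changed. In that fit mutant pool 2 carries no weight in the difference. The signs of small changes turned. *Spry1* (0.04) was at −0.0027 with percentile scaling, −0.0123 with quantile normalization, −0.0041 without background correction, −0.0065 with normexp on the local background, −0.60 in the authors' values, −0.0035 with array weights and −0.0138 with the block, and from −0.0489 to 0.13 with 1 array left out. *Dusp6* (−0.02) was at 0.33 with the local background, 0.34 in the authors' values set to 1 median and 0.0291 with the block, and from −0.10 to 0.0845 with 1 array left out. *Etv5* was at 0.001 in the authors' values set to 1 median. As deposited, those values shift the median of all probes to −0.54 and gave −0.09 for *Fgf10*, −0.32 for *Fgf9*, −0.26 for *Fgfr4*, −0.47 for *Fgfr3* and −0.13 for *Fgf11*. Without wild-type pool 4, *Fgfr2* was at 0.0075 and *Fgfr1* at 0.0652. *Fgfr2* ran from −0.0808 to 0.0075 and *Fgfr1* from −0.37 to 0.0652 with 1 array left out. Relative to *Fgf8*, the exact p reached 0.0286 with quantile normalization for *Dusp6* (1.30), *Spry2* (1.07) and *Etv5* (1.32), and for *Spry2* without background correction (1.22), with the local background (1.31) and in the authors' values (1.28, both as deposited and set to 1 median). Of 20 alternatives, none changed the sign of *Spry2*, *Etv4* or the second *Etv5* probe. *Hhip* lost its call in the authors' values, at −3.41 as deposited and −2.80 set to 1 median. The cause of these differences was not tested. Signals near background limit what the second *Fgf8* probe, *Fgf15* and *Fgf3* can show.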
